A study of Mus musculus with 4 samples.

Results

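The 9 genes described here are IRF and STAT regulators of the interferon response and the inhibitors they induce: Irf1, Irf7, Irf8, Irf9, Stat2, Stat3, Nlrc5, Socs1 and Socs3. They were taken by name from the 41862 gene columns of 4 single-cell RNA libraries, and all 9 were found. Their counts were summed by cell type and library over 7899 of 12987 listed barcodes, those with at least 500 UMIs and at most 20% mitochondrial UMIs. A UMI (unique molecular identifier) stands for 1 captured RNA molecule, and levels are given in CPM, the UMIs of a gene scaled to 1000000 UMIs of a cell class.

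The cells were isolated from the CNS of C57BL6 animals carrying Aldh1l1CreERT2 and a TdTomato reporter, in which the promoter of the astrocyte gene Aldh1l1 drives a tamoxifen-inducible Cre recombinase. The 4 groups, with 1 library each, were TRAIL+ and TRAIL- cells of EAE mice and TRAIL+ and TRAIL- cells of naive mice, and cells of all of them were sorted as TdTomato+ and LAMP1+. EAE (experimental autoimmune encephalomyelitis) is a model of multiple sclerosis, induced here with a myelin oligodendrocyte glycoprotein peptide in CFA and sampled at the peak of disease. The series describes 3 EAE mice and 3 naive mice. Neither their age nor any pooling of their cells is stated in the sources used here. TRAIL is a death ligand of the tumour necrosis factor family, and LAMP1 marks lysosomes and appears at the surface of cells that secrete them.

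With 1 library per group there was no replicate check, so no difference below has a p-value. Intervals are exact 95% intervals, Poisson for levels and Clopper-Pearson for ratios, and cover counting error only. Kept libraries held 2549414 to 3759970 UMIs, with medians of 949 to 1907.5 UMIs per barcode. Pairs of libraries shared 23 to 40 kept barcodes. The EAE and naive libraries also differed in sex-linked genes: Xist stood at 1137.5 CPM (TRAIL+) and 1331 CPM (TRAIL-) in microglia-like cells of EAE mice, against 8.39 CPM (TRAIL+) and 11.9 CPM (TRAIL-) in those of naive mice. The sum of 4 Y-linked genes ran the other way, at 21.1 and 20.1 CPM in EAE and 260.6 and 236.3 CPM in naive cells. Sex and disease therefore cannot be told apart in any EAE-to-naive ratio below.

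The labelled cell type was astrocytes, but few barcodes carried an astrocyte profile. Astrocyte-like cells numbered 9 in EAE TRAIL+, 3 in EAE TRAIL-, 146 in naive TRAIL+ and 35 in naive TRAIL-. Microglia-like cells were 89.5% of EAE TRAIL+ and 84.4% of naive TRAIL+ barcodes, against 18.7% of EAE TRAIL- and 14.1% of naive TRAIL- barcodes. The TRAIL- libraries held endothelial-like cells (500 in EAE and 1163 in naive) and pericyte or smooth muscle-like cells (467 in EAE and 514 in naive). EAE mice gave 140 TRAIL+ and 233 TRAIL- monocyte-like cells, and naive mice 23 and 20. Neither the 9 genes nor any gene of the pathway lists read below was used in clustering. Genes outside those lists were not left out, among them H2-Q6, H2-Eb1 and H2-Aa, which are leading genes of a microglia-like cluster described below.

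Interferons signal through JAK kinases to STAT proteins. STAT2 and IRF9 are subunits of the complex ISGF3, which forms in response to type I interferons and binds interferon-stimulated response elements, whereas interferon gamma acts mainly at gamma-activated sequences and induces Irf1. IRF7 amplifies type I interferon production, IRF8 is required for the microglial and monocyte lineages, NLRC5 is the transactivator of MHC class I genes, and STAT3 serves interleukin 6 family and interleukin 10 receptors. SOCS1 and SOCS3 are induced by the same signals and inhibit the kinases, SOCS1 mainly on interferon receptors and SOCS3 mainly on gp130 receptors.

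Promoter windows of 8 of the 9 genes were matched in RefSeq's table on GRCm38.p6. The 250 bases before each start were searched on both strands for the core of the interferon-stimulated response element (GAAA, any 2 bases, GAAA) and for the gamma-activated sequence (TTC, any 3 bases, GAA). The first was found in 2 of the 8 genes and in 2.98% of 32851 promoter windows, and the second in 3 of the 8 genes and 7.02% of windows. The 8 genes had 11 windows, and a gene counted if any of its windows matched. The gene counts and the window shares are therefore in unlike units. The windows of 4 genes whose levels are set against each other below are shown 5′ to 3′ on the gene's strand, with matches in capitals: Irf1 (chr11:53769764-53770013, plus strand) and Irf8 (chr8:120736108-120736357, plus strand) with the gamma-activated sequence, and Stat2 (chr10:128270248-128270497, plus strand) and Socs1 (chr16:10785537-10785786, minus strand) with the response element core.
Irf1: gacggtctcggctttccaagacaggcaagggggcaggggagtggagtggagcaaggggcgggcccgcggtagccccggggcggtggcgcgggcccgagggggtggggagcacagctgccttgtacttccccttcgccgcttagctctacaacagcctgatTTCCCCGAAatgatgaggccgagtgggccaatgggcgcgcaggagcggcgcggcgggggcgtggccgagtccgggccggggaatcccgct
Irf8: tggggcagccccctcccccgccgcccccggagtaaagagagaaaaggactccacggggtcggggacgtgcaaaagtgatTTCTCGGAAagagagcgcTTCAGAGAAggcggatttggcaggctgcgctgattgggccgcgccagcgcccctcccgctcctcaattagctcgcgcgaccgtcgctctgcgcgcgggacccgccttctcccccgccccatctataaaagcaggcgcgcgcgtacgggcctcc
Stat2: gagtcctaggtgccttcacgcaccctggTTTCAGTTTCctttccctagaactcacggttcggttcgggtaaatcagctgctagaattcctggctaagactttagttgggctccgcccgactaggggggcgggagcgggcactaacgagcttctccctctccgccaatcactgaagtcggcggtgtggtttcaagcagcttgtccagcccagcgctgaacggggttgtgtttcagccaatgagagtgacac
Socs1: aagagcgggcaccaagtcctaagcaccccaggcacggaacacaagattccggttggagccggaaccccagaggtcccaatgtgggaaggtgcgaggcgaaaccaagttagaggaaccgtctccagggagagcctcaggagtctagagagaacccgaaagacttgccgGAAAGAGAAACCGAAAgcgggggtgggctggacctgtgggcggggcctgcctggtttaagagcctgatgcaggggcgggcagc
Irf1 held 1 gamma-activated sequence that began 90 bases before the start, and Irf8 held 2. The match in Stat2 lay on the opposite strand, and the 2 matches in Socs1 overlapped each other. Socs3 held 1 gamma-activated sequence, and the windows of Irf7, Irf9 and Stat3 held neither motif. A second listed start of Irf1 and one of Irf8 held no match. A match is a description of the letters in the window only.

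The genes lie, on GRCm38, at chr11:53770014-53778374 (Irf1), chr7:141262706-141266481 (Irf7), chr8:120736358-120756694 (Irf8), chr14:55603571-55610030 (Irf9), chr10:128270559-128292849 (Stat2), chr11:100885098-100939540 (Stat3), chr8:94434356-94527272 (Nlrc5), chr16:10782240-10785536 (Socs1) and chr11:117966079-117970047 (Socs3). All are annotated as protein coding. The annotated gene Gm20388 spans Irf8 on the same strand, and Rnf31 overlaps 123 bases of Irf9 on the same strand. Gm17334 lies within Irf1 on the opposite strand. The sources used here do not say how the authors' counting treated such overlaps or whether it used strand.

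Across cell classes the genes fell into different orders. Within every library, Irf1, Irf8, Stat3 and Socs3 were highest in microglia-like cells. In naive TRAIL- cells, Irf8 stood at 532.2 CPM in microglia-like cells (470.4 to 599.9), against 9.81 CPM in endothelial-like cells and 13.7 CPM in pericyte or smooth muscle-like cells. Those low values were 1.84% and 2.57% of the microglial level, while the summed level of 15 microglia markers in the same classes was 1.85% and 1.46% of that in microglia-like cells. Irf8 in these vessel classes was therefore within the range of single microglia markers there, 1.03% to 3.34% and 0.486% to 12.3% of their microglial levels.

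**Figure D1:**
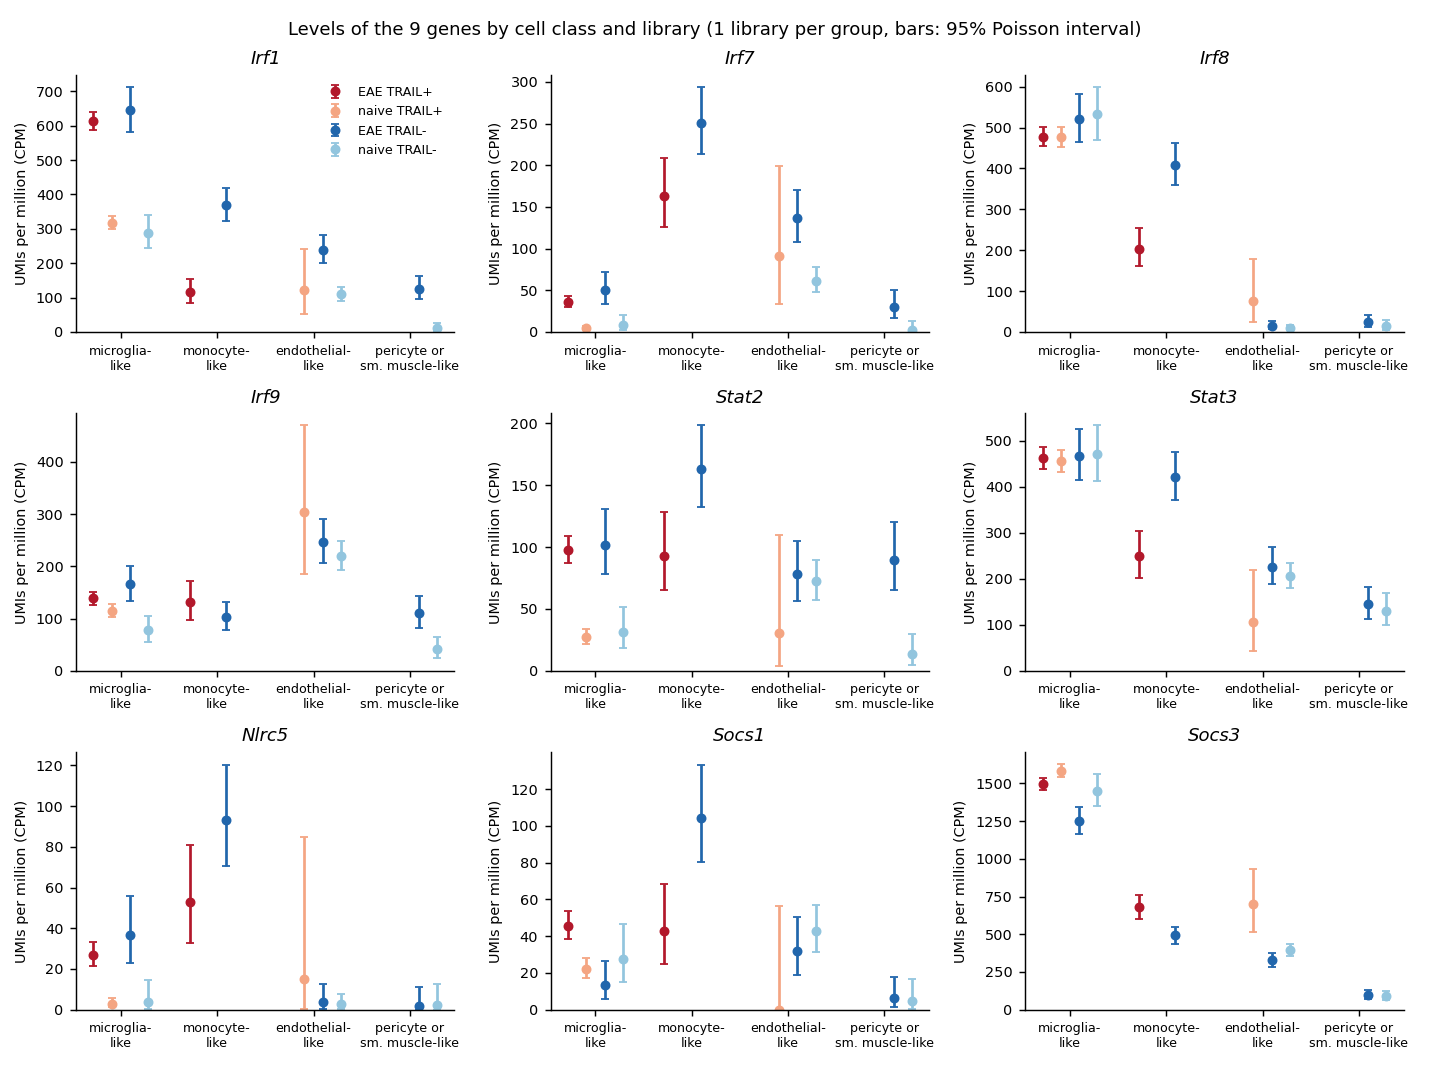
Level of each gene in CPM (y axis) by cell class (x axis) and library (colour), for the 4 classes that entered a comparison, with bars giving the 95% Poisson interval. Irf8, Stat3 and Socs3 are highest in microglia-like cells, whereas Irf7 and Nlrc5 are highest in monocyte-like cells of both EAE libraries.

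The interferon amplifier Irf7 and the ISGF3 subunits Irf9 and Stat2 had the other order. In naive TRAIL- cells, Irf7 stood at 61.5 CPM in endothelial-like cells, against 7.94 CPM in microglia-like cells and 2.28 CPM in pericyte or smooth muscle-like cells. Irf9 stood at 219.4, 77.4 and 41.1 CPM in the same 3 classes, and Stat2 at 72.2, 31.8 and 13.7 CPM. The endothelial interval overlapped that of no other class for Irf7 and Irf9, and for Stat2 it overlapped only that of oligodendrocyte-like cells (22.6 CPM on 3 UMIs, 4.66 to 66.1). Endothelial-like cells gave 40.8% of all UMIs in that library but 80.2% of its Irf7 UMIs, 75.9% of its Irf9 UMIs and 69.8% of its Stat2 UMIs. In EAE TRAIL- cells Irf9 was again highest in endothelial-like cells (246.4 CPM), while Irf7 and Stat2 were highest in monocyte-like cells.

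Monocyte-like cells stood out in EAE TRAIL- for Irf7 (251.2 CPM), Stat2 (163.1 CPM), Nlrc5 (93.0 CPM) and the inhibitor Socs1 (104.4 CPM). The next class was endothelial-like for Irf7 (136.5 CPM) and Socs1 (31.9 CPM) and microglia-like for Stat2 (102.0 CPM) and Nlrc5 (36.8 CPM), and the intervals of these neighbours did not overlap. Monocyte-like cells gave 24.0% of the UMIs of that library, 52.6% of its Irf7 UMIs, 68.7% of its Nlrc5 UMIs and 66.0% of its Socs1 UMIs. Stat3, at 466.6 CPM in microglia-like and 420.9 CPM in monocyte-like cells, did not separate those 2 classes.

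The first comparison asked how the regulators differed between EAE and naive microglia-like cells of the TRAIL+ gate. Irf7 rose 8.08-fold, Nlrc5 9.29-fold, Stat2 3.55-fold and Socs1 2.05-fold, whereas Irf8, Stat3 and Socs3 had ratios close to 1. Thus 4 of the 9 genes were at least 2-fold higher and 0 were lower. Of all 8576 genes compared in this contrast, 3.82% were higher and 0.863% lower by the same rule, 4.69% in either direction. Genes were compared where the mean of both libraries reached 10 CPM and their UMIs together reached 20. With under 5 CPM in the naive library, Irf7 and Nlrc5 could pass that filter only through a higher EAE level, so the count of 4 is a description. With every cell thinned to 500 UMIs, the ratio of Nlrc5 was 5.10.

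Among the IRF factors, Irf7 was carried by 119 UMIs in EAE and 14 in naive microglia-like cells of this gate, or 36.5 CPM (30.2 to 43.6) against 4.52 CPM (2.47 to 7.58). The ratio was 8.08 (4.63 to 15.2). Irf1, an early regulator induced by interferon gamma, had 2000 UMIs in EAE cells and 986 in naive ones of this gate, or 612.9 against 318.0 CPM. Its ratio of 1.93 (1.78 to 2.08) lay just under 2-fold with an interval well above 1. The ISGF3 subunit Irf9 stood at 138.5 CPM in EAE and 114.8 CPM in naive cells, a ratio of 1.21 (1.05 to 1.39). The lineage factor Irf8 stood at 478.0 CPM in EAE and 476.7 CPM in naive cells, a ratio of 1.00 (0.933 to 1.08).

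Stat2, the ISGF3 subunit specific to type I and type III interferon signalling, had 318 UMIs (97.4 CPM) in EAE and 85 UMIs (27.4 CPM) in naive cells, a ratio of 3.55 (2.79 to 4.57). Stat3 stood at 462.4 CPM in EAE and 455.4 CPM in naive cells, a ratio of 1.02 (0.944 to 1.09). The intervals of the 2 STAT ratios did not overlap, and the difference between the ratios was not tested. Nlrc5, the class I transactivator, had 88 UMIs (27.0 CPM) in EAE and 9 UMIs (2.903 CPM) in naive cells, a ratio of 9.29 (4.68 to 20.99).

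The inhibitors had different ratios. Socs1 stood at 45.7 CPM (38.6 to 53.6) in EAE microglia-like cells, against 22.3 CPM (17.3 to 28.2) in naive ones, a ratio of 2.05 (1.53 to 2.77). This call was marginal: with TMM scaling or DESeq2 size factors, which moved all log2 ratios of this contrast by -0.08 and -0.10, Socs1 was under 2-fold, and with cells thinned to 500 UMIs it was at 1.74-fold. Socs3 had 4883 UMIs in EAE and 4910 in naive cells, or 1496 against 1584 CPM, and a ratio of 0.945 (0.908 to 0.983).

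In the TRAIL- gate, microglia-like cells of EAE mice again had Irf7, Stat2 and Nlrc5 high. Irf7 rose 6.32-fold, Nlrc5 9.26-fold, Stat2 3.21-fold, Irf1 2.24-fold and Irf9 2.14-fold, while Irf8, Stat3 and Socs3 again had ratios between 0.86 and 1. That made 5 of 9 genes at least 2-fold higher and 1 lower. The background was wider here, since 11.8% of the 6792 genes compared were higher and 10.2% lower by this rule (22% in either direction), from 298 EAE and 319 naive cells. Irf7 and Nlrc5, with 4 and 2 naive UMIs, could again reach the filter only through a higher EAE level, and Socs1, the gene that was lower, only through a higher naive level.

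Irf1 had 386 UMIs (645.5 CPM) in EAE TRAIL- and 145 UMIs (288.0 CPM) in naive TRAIL- microglia-like cells, a ratio of 2.24 (1.85 to 2.73). Irf7 had 30 UMIs (50.2 CPM) in EAE and 4 UMIs (7.94 CPM) in naive cells, a ratio of 6.32 (2.23 to 24.7). Its log2 value of 2.66 was 2.16 among cells with at least 1000 UMIs and 3.51 without the cell with most Irf7 UMIs. Irf9 stood at 165.6 CPM in EAE and 77.4 CPM in naive cells, a ratio of 2.14 (1.46 to 3.18), which was 1.86 among cells with at least 1000 UMIs. The interval of Irf9 here did not overlap that in the TRAIL+ gate, but the difference between the gates was not tested.

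Stat2 stood at 102.0 CPM in EAE cells of this gate, against 31.8 CPM in naive ones, a ratio of 3.21 (1.83 to 5.97) that was 1.78 with cells thinned to 500 UMIs. Nlrc5 stood at 36.8 CPM (22 UMIs) in EAE and 3.97 CPM (2 UMIs) in naive cells, a ratio of 9.26 (2.28 to 81.3), or 4.28 when thinned. Irf8 stood at 520.1 CPM in EAE and 532.2 CPM in naive cells, and Stat3 at 466.6 CPM in EAE and 470.7 CPM in naive cells. As in the TRAIL+ gate, these 2 genes had ratios near 1, 0.977 (0.827 to 1.15) and 0.991 (0.831 to 1.18). Socs3 stood at 1253 CPM in EAE and 1452 CPM in naive cells, a ratio of 0.863 (0.778 to 0.957).

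Socs1 went the other way in this gate. It had 8 UMIs (13.4 CPM, 5.78 to 26.4) in EAE TRAIL- and 14 UMIs (27.8 CPM, 15.2 to 46.6) in naive TRAIL- microglia-like cells. The ratio of 0.481 passed the 2-fold rule with an interval, 0.175 to 1.23, that includes 1. In the TRAIL+ gate the same gene had a ratio of 2.05. Under 9 of 14 alternative settings the TRAIL- ratio stayed below 0.5, with log2 values between -1.97 and -0.49 over all 14.

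**Figure D2:**
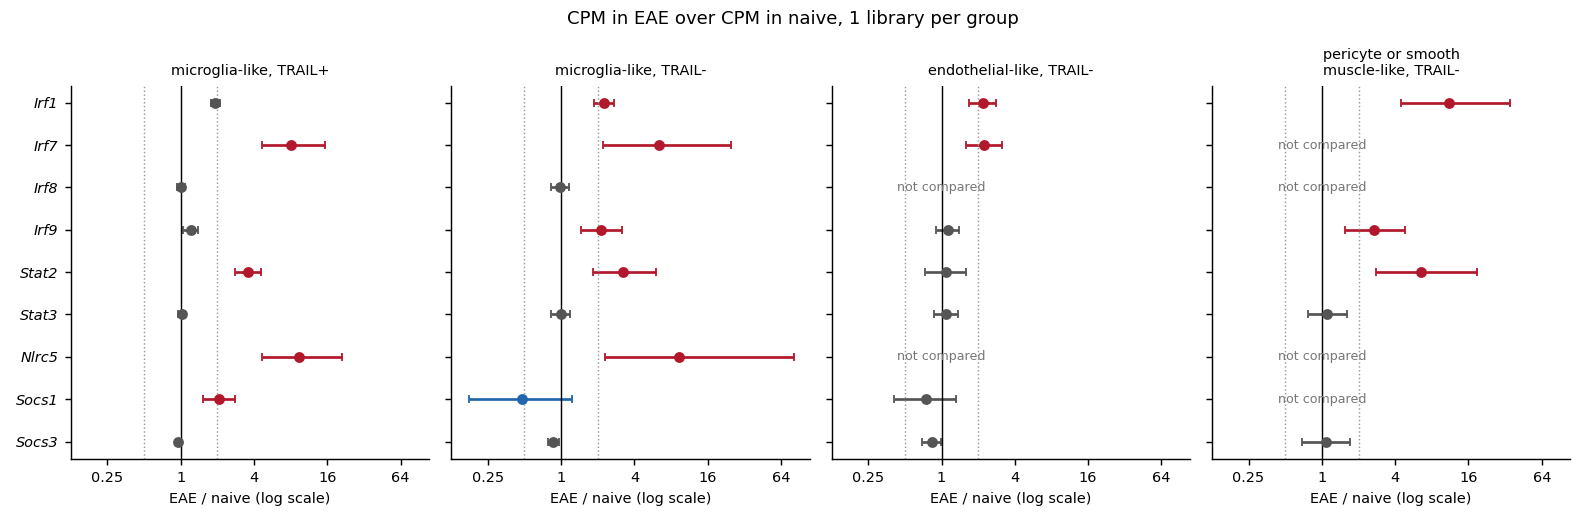
Ratio of the CPM in EAE to the CPM in naive cells (x axis, log scale) for each gene (y axis) in 4 class and gate combinations, with 95% Clopper-Pearson intervals; red is at least 2-fold higher, blue at least 2-fold lower, grey between. Irf7, Stat2 and Nlrc5 lie right of 2 in both microglia panels, while Irf8, Stat3 and Socs3 sit near 1.

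Immediate early genes, which are induced by dissociation and which share inducers with Socs3 and Irf1, also differed between these cells. In the TRAIL+ gate their summed level was 34787 CPM in EAE and 46925 CPM in naive microglia-like cells, and in the TRAIL- gate 24845 and 48100 CPM. In the TRAIL+ gate 1 of 20 such genes was at least 2-fold lower, Jund (0.488), and in the TRAIL- gate 9 of 20, led by Fosb (0.260), Klf4 (0.316), Jun (0.335) and Fos (0.344). Their part in the ratios of the 9 genes was not tested.

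Microglia-like cells comprised 5 clusters, and 1 of them was led by immune genes (Hcar2, H2-Q7, Cd74), with Xist also among its first 10 genes. It had 3 microglia markers among its first 100 genes and 0 among its first 10. It held 521 TRAIL+ and 157 TRAIL- cells of EAE mice, against 22 and 4 of naive mice, whereas the cluster led by Sall1, Rhoh and P2ry13 held 509 and 83 cells of EAE mice and 1168 and 224 of naive mice. Within the EAE TRAIL+ library the immune-led cluster had 50.1 CPM of Irf7, 139.3 CPM of Stat2 and 39.1 CPM of Nlrc5, against 28.8, 73.8 and 20.1 CPM in the other microglia-like clusters. Socs1 was at 29.7 CPM in it and 54.7 CPM in the others. Irf1, Irf8, Irf9, Stat3 and Socs3 were within 1.13-fold of the others there. In EAE TRAIL- the ratios of the immune-led cluster to the others were 1.46 for Irf7, 0.918 for Stat2 and 0.874 for Nlrc5, with intervals that include 1.

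The other microglia-like clusters were still above their naive counterparts. In the TRAIL+ gate, cells outside the immune-led cluster had 28.8 CPM of Irf7, 73.8 CPM of Stat2 and 20.1 CPM of Nlrc5 in EAE, against 3.92, 27.1 and 2.61 CPM in naive cells. Irf1 stood at 600.8 CPM in those EAE cells and 319.5 CPM in the naive ones. In the TRAIL- gate the values were 39.7, 107.1 and 39.7 CPM in EAE, against 8.02, 32.1 and 4.01 CPM in naive cells, from 141 EAE and 315 naive cells. Irf7 and Nlrc5 rested on 10 UMIs each in those EAE TRAIL- cells. All naive TRAIL- microglia-like cells held 4 and 2 UMIs of them, so both genes were under the 20-UMI filter there.

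**Figure D3:**
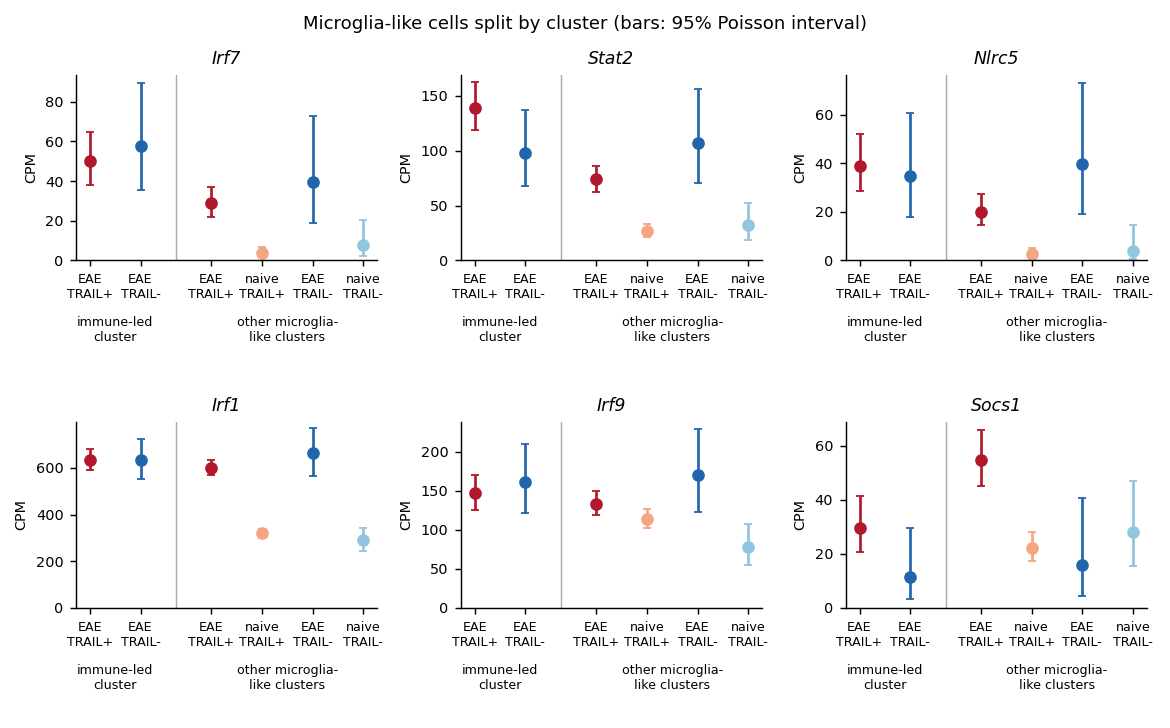
Level in CPM (y axis, bars 95% Poisson interval) of 6 genes in the immune-led microglia-like cluster (left of the grey line) and in all other microglia-like clusters (right), by library (x axis). The other clusters of both EAE libraries lie above the naive ones for Irf7, Stat2, Nlrc5 and Irf1, and Socs1 in EAE TRAIL+ is lower in the immune-led cluster than outside it. In the other clusters of EAE TRAIL-, Irf7 and Nlrc5 rest on 10 UMIs each.

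The TRAIL gate was compared next within one disease state. These contrasts use the same 4 libraries as the EAE-to-naive ratios. Between EAE TRAIL+ and EAE TRAIL- microglia-like cells only Socs1 among the 9 genes was past 2-fold, at 45.7 against 13.4 CPM and a ratio of 3.41 (1.69 to 8.05). Its log2 ratio of 1.77 was 1.46 with cells thinned to 500 UMIs and 2.68 without cells under 1% own markers. In this contrast 5.41% of the 8914 genes compared were higher and 5.9% lower by the 2-fold rule, 11.3% in either direction, so 1 gene of 9 is near the background. Irf7 stood at 36.5 CPM in TRAIL+ and 50.2 CPM in TRAIL-, a ratio of 0.727 (0.484 to 1.12), and Nlrc5 at 27.0 CPM in TRAIL+ and 36.8 CPM in TRAIL-, a ratio of 0.733 (0.455 to 1.23). The ratios of Irf1 (0.949), Irf8 (0.919), Irf9 (0.837), Stat2 (0.955) and Stat3 (0.991) all had intervals that include 1, and Socs3 was at 1.19 (1.11 to 1.29).

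Between naive TRAIL+ and naive TRAIL- microglia-like cells, 0 of the 7 genes compared were past 2-fold, while 9.38% of the 8333 genes compared were (4.21% higher and 5.17% lower). Irf7 and Nlrc5 were below the level filter, with 14 and 9 UMIs in naive TRAIL+ and 4 and 2 UMIs in naive TRAIL- cells. Irf9 stood at 114.8 CPM in TRAIL+ and 77.4 CPM in TRAIL-, a ratio of 1.48 (1.06 to 2.12). Socs1 stood at 22.3 CPM in TRAIL+ and 27.8 CPM in TRAIL-, a ratio of 0.800 (0.446 to 1.54). The ratios of Irf1 (1.10), Irf8 (0.896), Stat2 (0.863), Stat3 (0.968) and Socs3 (1.09) lay within 1.2-fold of 1.

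In monocyte-like cells of EAE mice, Irf1 and Socs1 were at least 2-fold lower in the TRAIL+ gate. Irf1 fell to 115.9 CPM (46 UMIs) in TRAIL+ cells, against 368.7 CPM (226 UMIs) in TRAIL- cells, a ratio of 0.314 (0.224 to 0.433). Socs1 fell to 42.8 CPM (17 UMIs), against 104.4 CPM (64 UMIs), a ratio of 0.410 (0.225 to 0.709). Its log2 value of -1.29 was -2.17 with cells thinned to 500 UMIs and -1.16 among cells with at least 1000 UMIs. Thus 2 of 9 genes were at least 2-fold lower and 0 higher. Of the 6006 genes compared, 9.46% were lower and 8.92% higher by this rule, 18.4% in either direction.

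The other 7 members were between the limits, 5 with ratios below 1 and 2 with ratios above 1. Irf8 stood at 204.0 CPM in TRAIL+ and 407.8 CPM in TRAIL- monocyte-like cells, a ratio of 0.5003 (0.384 to 0.645) that just missed the rule. Irf7 stood at 163.7 CPM in TRAIL+ and 251.2 CPM in TRAIL- (ratio 0.652, 0.480 to 0.876), and Stat3 at 249.3 and 420.9 CPM (ratio 0.592, 0.465 to 0.750). Stat2 had a ratio of 0.571 (0.381 to 0.841) and Nlrc5 one of 0.569 (0.328 to 0.953). Irf9, at 131.0 CPM in TRAIL+ and 102.8 CPM in TRAIL-, had a ratio of 1.27 (0.865 to 1.87). Socs3 stood at 677.5 CPM in TRAIL+ and 492.6 CPM in TRAIL- cells, a ratio of 1.38 (1.16 to 1.63).

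The 2 monocyte-like groups also differed in their markers. The sum of 15 microglia markers was 11321 CPM in TRAIL+ and 3230 CPM in TRAIL- monocyte-like cells, or 31.2% and 10.3% of the level in microglia-like cells of the same library. The sum of 10 monocyte markers was 13800 CPM in TRAIL+ and 21401 CPM in TRAIL- cells, and that of immediate early genes was 16719 and 11443 CPM, with Egr1 (4.84), Fosb (2.38), Egr2 (2.14) and Fos (2.004) past 2-fold. Irf1 and Irf8 were higher in microglia-like than in monocyte-like cells of both libraries, while their monocyte-like level was lower in TRAIL+. The part of these differences in the ratios was not tested.

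**Figure D4:**
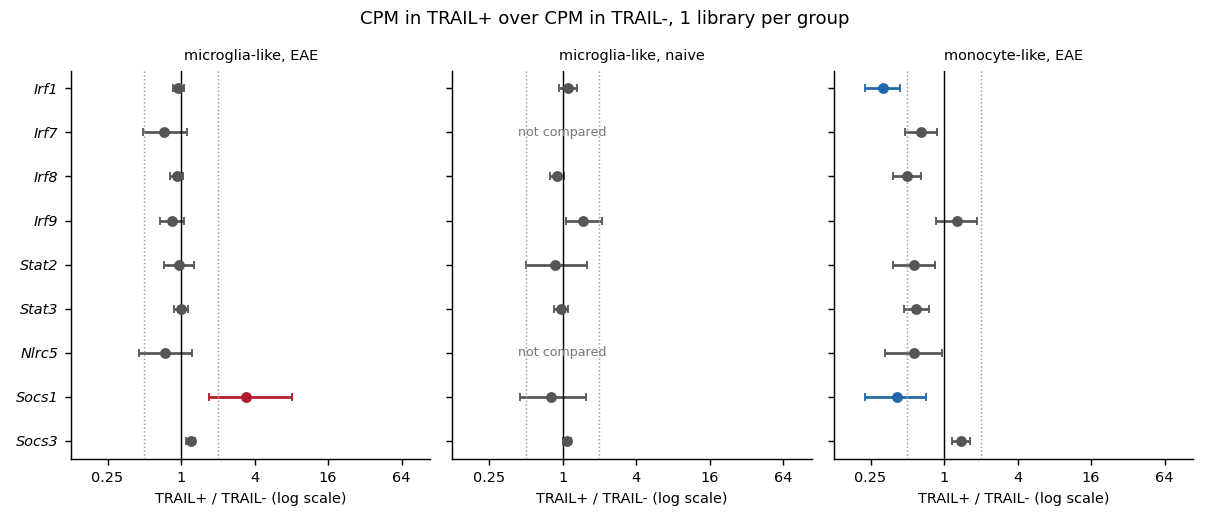
Ratio of the CPM in TRAIL+ to the CPM in TRAIL- cells (x axis, log scale) for each gene (y axis) in microglia-like cells of EAE and naive mice and in monocyte-like cells of EAE mice, with 95% Clopper-Pearson intervals; colours as in the EAE-to-naive plot. Socs1 is the only gene past 2-fold in EAE microglia-like cells, no gene is in naive ones, and Irf1 and Socs1 lie left of 0.5 in monocyte-like cells.

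Vessel cells of the TRAIL- gate gave a view of the regulators outside the myeloid lineage. In endothelial-like cells Irf1 rose 2.18-fold and Irf7 2.22-fold in EAE, while the ISGF3 subunits Irf9 and Stat2 were level. That was 2 of 7 genes compared at least 2-fold higher and 0 lower, and of all 8405 genes compared 5.63% were higher and 8.08% lower by this rule, 13.7% in either direction. Irf1 had 135 UMIs (239.3 CPM) in EAE and 123 UMIs (109.7 CPM) in naive cells, a ratio of 2.18 (1.696 to 2.81). Irf7 had 77 UMIs (136.5 CPM) in EAE and 69 UMIs (61.5 CPM) in naive cells, a ratio of 2.22 (1.58 to 3.12), which was 1.86 among cells with at least 1000 UMIs.

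Of the genes that were level, Irf9 stood at 246.4 CPM in EAE and 219.4 CPM in naive endothelial-like cells, a ratio of 1.12 (0.906 to 1.39). Stat2 stood at 78.0 CPM in EAE and 72.2 CPM in naive cells, a ratio of 1.08 (0.731 to 1.58), and Stat3 at 225.1 and 206.0 CPM, a ratio of 1.09 (0.873 to 1.36). The inhibitors were on the other side of 1: Socs1 at 31.9 CPM in EAE and 42.8 CPM in naive cells, a ratio of 0.746 (0.408 to 1.31), and Socs3 at 327.9 and 395.0 CPM, a ratio of 0.830 (0.696 to 0.988). Nlrc5, with 2 UMIs in EAE and 3 in naive cells, was too low to be compared, as was Irf8 with 8 and 11 UMIs.

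Both endothelial clusters had higher Irf1 and Irf7 levels in EAE. The larger cluster held 411 EAE and 966 naive TRAIL- cells, and the smaller one 89 and 197. Levels by cluster are given here without intervals. In the larger one, led by Ctla2a, Slc7a5 and Itm2a, Irf1 stood at 236.9 CPM in EAE and 110.6 CPM in naive cells, and Irf7 at 124.0 and 53.6 CPM. In the one led by Gkn3 and Sema3g, which are arterial genes, Irf1 stood at 249.2 CPM in EAE and 106.0 CPM in naive cells, and Irf7 at 186.9 and 92.8 CPM. In endothelial-like cells without a UMI of any microglia or monocyte marker (348 in EAE and 922 in naive), Irf1 had a ratio of 2.85 (2.08 to 3.92) and Irf7 one of 2.06 (1.38 to 3.05).

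Endothelial-like cells could also be compared between the gates in naive mice, with only 58 TRAIL+ cells against 1163 TRAIL- cells. There 1 of 7 genes was past 2-fold, Stat2, on 2 UMIs in TRAIL+ cells (ratio 0.422, 0.0502 to 1.57), and 25.2% of the 7189 genes compared were past 2-fold (12.8% higher and 12.4% lower), so nothing is read from it. Irf7 stood at 91.4 CPM (6 UMIs) in TRAIL+ and 61.5 CPM in TRAIL- cells (ratio 1.49, 0.527 to 3.402), and Irf9 at 304.7 and 219.4 CPM (ratio 1.39, 0.834 to 2.19). Irf1 stood at 121.9 and 109.7 CPM (ratio 1.11, 0.469 to 2.26), and Stat3 at 106.7 and 206.0 CPM (ratio 0.518, 0.206 to 1.08). Socs1 had 0 UMIs in these TRAIL+ cells, where 3 counts are 45.7 CPM and the upper Poisson limit is 56.2 CPM, and 42.8 CPM in the TRAIL- cells. Irf8 (5 and 11 UMIs, 76.2 and 9.81 CPM, ratio 7.77, 2.12 to 24.2) and Nlrc5 (1 and 3 UMIs) were below the filter. Socs3, at 700.9 CPM in TRAIL+ and 395.0 CPM in TRAIL-, had a ratio of 1.77 (1.28 to 2.41). Of the target lists, 2 of 14 ISGF3, 3 of 9 interferon gamma and 3 of 13 class I genes were lower and 0 higher, while 1 of 9 STAT3 targets was higher and 0 lower. The STAT3 target was Pim1 (2.39, 1.39 to 3.87). The lower genes were Ifit1 (0 UMIs in TRAIL+ and 185 in TRAIL-), Ifit3 (0.184), Gbp7 (0.164), Cd274 (0.380), Igtp (0.454), H2-T23 (0.264), Psmb8 (0.345) and Psmb10 (0.450). Elsewhere Irf5 (2.56), Cish (2.56) and Il15 (2.44) were higher, and Lifr (0.149), Socs6 (0.316) and Jak2 (0.342) lower, all 6 on 6 TRAIL+ UMIs or fewer. Of the genes named as lower, Lifr, Socs6, Jak2, Ifit1 and Ifit3 could pass the filter only through a higher TRAIL- level. The same held for 1 of the 3 interferon gamma targets, so these counts are descriptions. The microglia markers summed to 5181 CPM in these TRAIL+ and 686 CPM in these TRAIL- cells, and their part in the result was not tested.

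Pericyte or smooth muscle-like cells had the largest Irf1 ratio of any class compared. Irf1 rose 11.1-fold, Stat2 6.54-fold and Irf9 2.68-fold in EAE TRAIL- over naive TRAIL- cells, whereas Stat3 and Socs3 were level. These were 3 of 5 genes compared, 0 were lower, and of all 6925 genes compared 6.77% were higher and 7.26% lower by this rule, 14% in either direction. With 5 and 6 naive UMIs, Irf1 and Stat2 could reach the 20-UMI filter only through a higher EAE level. Irf1 had 62 UMIs (126.2 CPM, 96.7 to 161.8) in 19 EAE cells and 5 UMIs (11.4 CPM, 3.70 to 26.6) in 4 naive cells, a ratio of 11.1 (4.49 to 35.3). The EAE library held 467 such cells and the naive one 514, so few had an Irf1 UMI in either, and 1 EAE cell held 12 of the UMIs. With cells thinned to 500 UMIs the ratio was 4.95, and among cells with at least 1000 UMIs its log2 value of 3.47 was 4.46.

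Stat2 had 44 UMIs (89.5 CPM) in EAE and 6 UMIs (13.7 CPM) in naive pericyte or smooth muscle-like cells, a ratio of 6.54 (2.78 to 18.8). Its partner Irf9 had 54 UMIs (109.9 CPM) in EAE and 18 UMIs (41.1 CPM) in naive cells, a ratio of 2.68 (1.55 to 4.85). The Irf9 ratio depended on the setting: its log2 value of 1.42 was 0.82 in cells without a UMI of a microglia or monocyte marker, 0.98 as a mean of the CPM of each cell and 4.43 among cells with at least 1000 UMIs. Whether these ratios differ from those in endothelial-like cells was not tested. Stat3 stood at 144.5 CPM in EAE and 130.03 CPM in naive cells, a ratio of 1.11 (0.773 to 1.60), and Socs3 at 95.6 and 89.0 CPM, a ratio of 1.08 (0.688 to 1.69). Irf7 had 15 UMIs in EAE and 1 UMI in naive cells, too few to be compared, and Irf8 (12 and 6 UMIs), Socs1 (3 and 2 UMIs) and Nlrc5 (1 and 1 UMI) were also below the filter.

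Microglial RNA was measured in this class too. The sum of 15 microglia markers was 769 CPM in EAE and 541 CPM in naive cells, or 2.46% and 1.46% of the microglia-like level, and that of 10 monocyte markers was 204 CPM in EAE and 27.4 CPM in naive cells. The EAE value was 0.951% of the level in EAE TRAIL- monocyte-like cells. None of the 15 microglia markers was at 0. Of 17 immediate early genes compared, Fos (0.471) was lower and 0 were higher. Irf1 in the EAE cells was at 19.5% of the microglia-like level and Stat2 at 87.8%. In cells without a UMI of any of these markers (333 in EAE and 412 in naive), Irf1 stood at 106.9 CPM in EAE and 8.69 CPM in naive cells, a ratio of 12.3 (3.89 to 62.5), and Stat2 at 80.2 and 17.4 CPM, a ratio of 4.61 (1.87 to 13.7). Irf7 had 15 UMIs in those EAE cells and 0 in the naive ones. Irf9 there had a ratio of 1.77 (0.958 to 3.35), under 2-fold.

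Astrocyte-like cells allowed no comparison between groups, since only the naive TRAIL+ library had at least 50. In its 146 cells Stat3 stood at 178.0 CPM (126.0 to 244.4) and Socs3 at 313.9 CPM (243.3 to 398.7), or 39.1% and 19.8% of the microglia-like level of that library. Irf1 and Irf8 each had 14 UMIs (65.6 CPM), at 20.6% and 13.8% of the microglia-like level, while the microglia markers were at 21.3% of theirs. Irf9 and Stat2 were at 36.7% and 68.4%. Irf1, Irf8 and Socs3 were therefore at or below the summed marker level in these cells, and Stat3, Irf9 and Stat2 had values above it. Single microglia markers ranged from 13.8% to 29.8% of their microglia-like levels. Stat2 stood at 18.7 CPM and Irf9 at 42.2 CPM, where 3 counts are 14.1 CPM. Both rested on few UMIs, so neither is read as above microglial RNA. In the 58 border macrophage-like cells of the same library, Irf8 stood at 249.2 CPM, Stat3 at 348.8 CPM and Socs3 at 598.0 CPM, each below the microglia-like level. In the astrocyte-like cells Irf7 (2 UMIs), Nlrc5 (1 UMI) and Socs1 (0 UMIs, where 3 counts are 14.1 CPM) were at or below the 3-count floor.

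The rest of the pathway was read from lists of receptors, kinases and target genes. In EAE over naive microglia-like cells of the TRAIL+ gate, 10 of 14 ISGF3 target genes, 12 of 13 interferon gamma target genes and 8 of 13 NLRC5 target genes (MHC class I and its processing) were at least 2-fold higher and 0 lower. The median ratios of these lists were 3.24, 3.71 and 2.39, and the median log2 ratio over all genes compared was 0.03. Of the genes counted, 5 ISGF3 targets and 4 interferon gamma targets could pass the filter only through a higher EAE level, so these counts and medians are descriptions. The receptor chains (0 of 9), the JAK kinases (0 of 4) and STAT3 target genes (0 of 9) had no gene past 2-fold. Among ISGF3 targets the largest ratios were those of the antiviral genes Rsad2 (15.5), Ifitm3 (14.5), Ifit2 (12.01) and Ifit3 (10.8). Among interferon gamma targets they were those of the chemokine Cxcl9 (122 on 1 naive UMI, 21.4 to 4841), the GTPase Iigp1 (34.0), the MHC class II invariant chain Cd74 (23.2) and the guanylate-binding protein Gbp2 (19.3).

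Class I genes were led by H2-Q7 (4.54), the peptide transporter Tap1 (4.45), H2-T22 (3.56) and H2-D1 (3.10). H2-Q7 has close paralogs, so its counts are uncertain. Of the ligands 1 of 6 was past 2-fold, Il12b (3.92), a subunit of interleukins 12 and 23. Of the other feedback inhibitors 1 of 14 was, Usp18 (8.38), which blocks the type I interferon receptor.

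In the TRAIL- gate, microglia-like cells had 11 of 13 ISGF3 targets, 12 of 13 interferon gamma targets and 9 of 13 class I genes at least 2-fold higher and 0 lower, with median log2 ratios of 2.51, 2.66 and 1.99, set beside -0.01 over all genes, of which 11.8% were higher. Here 5 of the 11 ISGF3 targets, 4 of the 12 interferon gamma targets and 1 of the 9 class I genes could pass the filter only through a higher EAE level, so the counts and medians are again descriptions. The ISGF3 targets were led by Ifit2 (16.8, on 2 naive UMIs, 4.37 to 143.9), Rsad2 (15.6, also on 2, 4.02 to 133.4), Xaf1 (9.26, also on 2, 2.28 to 81.3) and Ifitm3 (7.40). The interferon gamma targets were led by Gbp2 (37.5), Iigp1 (29.3), Cd74 (14.6) and Cxcl9, which had 55 UMIs in EAE and 0 in naive cells. Class I genes were led by the immunoproteasome subunit Psmb9 (6.83), Tap1 (6.74), H2-Q7 (5.79) and Psmb8 (4.32). Of other STAT and IRF factors, Stat5b (0.374) and Irf3 (0.456) were at least 2-fold lower.

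Jak2, a kinase of the interferon gamma receptor, was at 78.6 CPM in EAE and 23.8 CPM in naive cells of that gate (ratio 3.30, 1.72 to 6.83). Jak1 had a ratio of 0.678 (0.557 to 0.824). Jak2 was the 1 of 3 kinases past 2-fold in that gate. Il10ra (0.487) was the 1 of 9 receptor chains. Il12b (44 UMIs in EAE and 1 in naive cells, ratio 37.1, 6.31 to 1496) was the 1 of 4 ligands, and Usp18, with 23 UMIs in EAE and 0 in naive cells, the 1 of 11 other inhibitors. Of 9 STAT3 targets only Hif1a was past 2-fold (4.37). Between EAE TRAIL+ and EAE TRAIL- microglia-like cells 0 of 14 ISGF3 targets and 0 of 13 class I genes were past 2-fold, and 2 of 13 interferon gamma targets were lower, Iigp1 (0.415) and Cxcl9 (0.426). Jak2 (0.409) was the 1 of 4 kinases lower there and Hif1a (0.422) the 1 of 9 STAT3 targets. The other factors had Irf2bp1 (2.29), Stat5a (2.06) and Irf3 (2.03) higher and Irf4 (0.483) lower, the ligands Ebi3 (2.03) higher and Il27 (0.497) lower among 7. Of 15 other inhibitors 2 were higher and 3 lower, led by Cish (0.194), Socs4 (3.12), Pias2 (3.02) and Socs5 (0.484). Of all genes compared in this contrast, 5.41% were higher and 5.9% lower. Both higher inhibitors and 1 of the 3 higher factors could pass the filter only through a higher TRAIL+ level. Irf4 and 1 of the 3 lower inhibitors could pass it only through a higher TRAIL- level. Between naive TRAIL+ and naive TRAIL- microglia-like cells, Psmb9 (2.202) was the 1 of 13 class I genes past 2-fold. Of 9 ISGF3 targets Ifih1 (2.11) was higher and Ifitm3 (0.278) lower. Of 9 interferon gamma targets Gbp7 (2.25) was higher and Cd74 (0.498) lower. The shares over all genes compared were 4.21% higher and 5.17% lower. Elsewhere 2 of 6 ligands were higher there, Il12b (9.10, on 1 TRAIL- UMI) and Il11 (4.39, on 2), and 1 of 4 kinases, Tyk2 (2.70). Of 13 other inhibitors Socs4 (2.60) and Socs7 (2.04) were higher. Ifitm3 could pass the filter only through a higher TRAIL- level. Il12b, Il11, Tyk2 and 1 of the 2 inhibitors could pass it only through a higher TRAIL+ level.

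**Figure D5:**
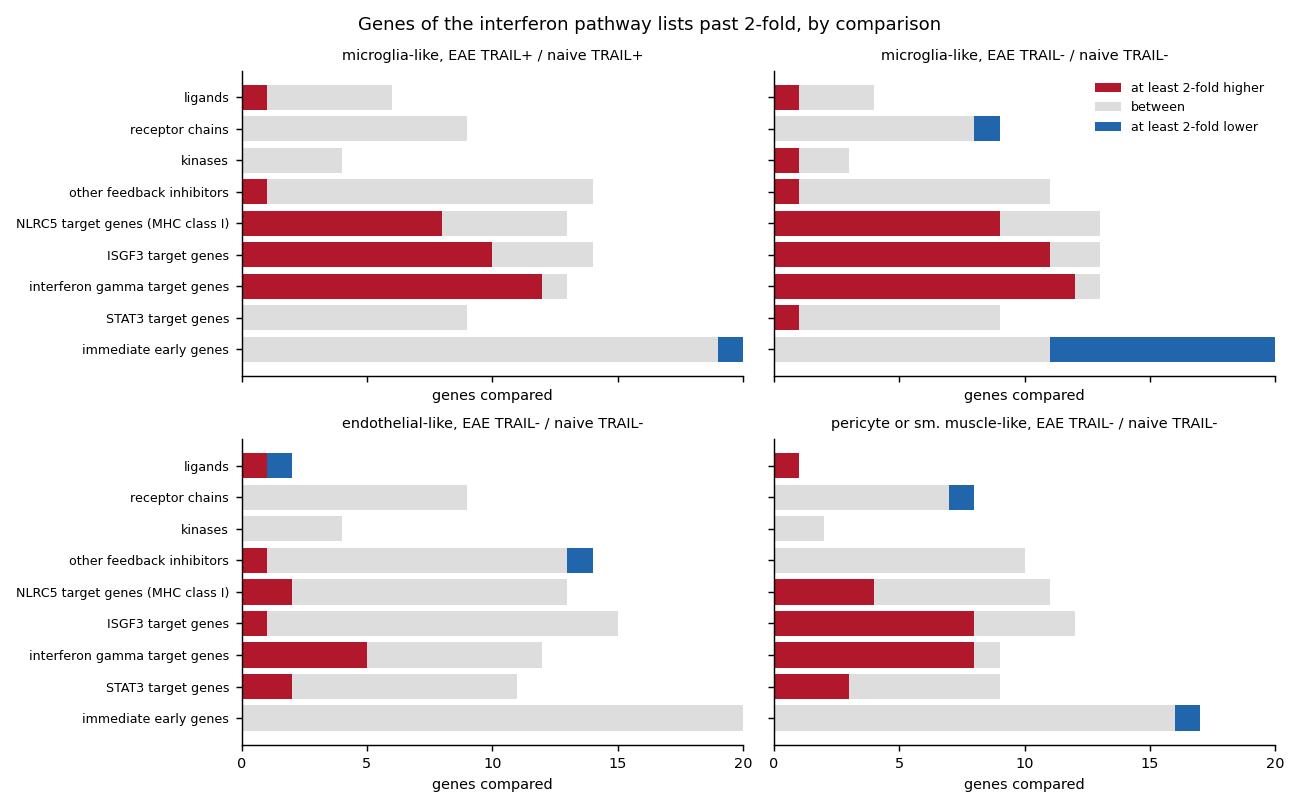
Number of genes of each pathway list shown (y axis) that were at least 2-fold higher (red), between (grey) or at least 2-fold lower (blue) in EAE over naive cells (x axis: genes compared), for microglia-like cells of both gates and for both vessel classes. Red fills most of the 3 target lists in microglia-like cells, and most of the ISGF3 and interferon gamma lists but not the class I list in pericyte or smooth muscle-like cells.

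In pericyte or smooth muscle-like cells, 8 of 12 ISGF3 targets, 8 of 9 interferon gamma targets, 4 of 11 class I genes and 3 of 9 STAT3 targets were at least 2-fold higher in EAE. The median log2 ratios of the first 2 lists were 1.40 and 2.42, against -0.04 over all genes, of which 6.77% were higher. Only through a higher EAE level could 3 of the 8 ISGF3 targets, 3 of the 8 interferon gamma targets, 2 of the 4 class I genes and all 3 STAT3 targets pass the filter, so these counts and medians are descriptions. Cxcl10, a T cell chemokine, had 161 UMIs in EAE and 2 in naive cells (ratio 71.8, 19.6 to 598.1), and Gbp3 24 and 1 (ratio 21.4, 3.49 to 880.5). Cd74 (11.6) and Iigp1 (6.76) followed among interferon gamma targets, and Ifit1 (9.59), Ifit3 (8.25), Isg15 (8.11) and Bst2 (4.91) led the ISGF3 list. Cd74 stood at 105.8 CPM in these EAE cells and 2957 CPM in EAE TRAIL- microglia-like cells, and Iigp1 at 293.1 and 291.0 CPM. Microglia markers in this class summed to 2.46% (EAE) and 1.46% (naive) of the microglia-like level. The part of microglial and monocyte RNA in the list ratios of this class was not tested. The class I genes past 2-fold were Psmb8 (4.68), H2-T23 (3.98), Tap1 (3.27) and H2-D1 (2.56), with Nlrc5 at 1 UMI in each library. Il6 was the 1 ligand compared, at 126.2 CPM in EAE and 25.1 CPM in naive cells (ratio 5.03, 2.63 to 10.6), and the STAT3 targets past 2-fold were Pim1 (3.67), Gadd45g (2.85) and Il4ra (2.55). Stat5b (0.423) and Ifnar1, a chain of the type I interferon receptor, were lower, Ifnar1 at 0.378 (0.187 to 0.727).

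In endothelial-like cells, where 5.63% of all genes compared were higher in EAE, 1 of 15 ISGF3 targets (Ifit2, 2.12), 5 of 12 interferon gamma targets, 2 of 13 class I genes (H2-Q7, 6.93, and H2-T22, 2.16) and 2 of 11 STAT3 targets were at least 2-fold higher, and 0 of these lists' genes were lower. The share of ISGF3 targets is near that of all genes, and 2 of the 5 interferon gamma targets and both STAT3 targets could pass the filter only through a higher EAE level. The interferon gamma targets were Cd74 (12.3), Gbp2 (2.85), Cxcl10 (2.62), Wars (2.21) and Cxcl9, with 21 UMIs in EAE and 0 in naive cells. Lrg1, a STAT3 target that acts on vessels, had 38 UMIs in EAE and 0 in naive cells, and Il4ra had a ratio of 3.15. Among the remaining lists the ligand Osm (4.26) and the inhibitor Pias2 (3.76) were higher, and Irf5 (0.199), Il15 (0.473) and Socs6 (0.368) were lower. Osm and Pias2 could pass the filter only through a higher EAE level, and Irf5 and Il15 only through a higher naive level. Osm had 15 UMIs in EAE and 7 in naive cells, and Il15 had 5 and 21. In EAE TRAIL- and naive TRAIL- microglia-like cells Osm stood at 652.2 and 343.6 CPM, and Cd74 at 2957 and 202.6 CPM. Osm in endothelial-like cells stood at 26.6 CPM in EAE and 6.24 CPM in naive. Microglia markers in endothelial-like cells summed to 2.47% (EAE) and 1.85% (naive) of the microglia-like level. The part of microglial RNA in the list ratios of this class was not tested. In monocyte-like cells of EAE mice, 6 of 15 ISGF3 targets and 10 of 14 interferon gamma targets were at least 2-fold lower in TRAIL+ than in TRAIL- cells, as were 9.46% of all genes compared, while Cd74 was higher (2.11). The lowest ratios were those of Rsad2 (0.279), Ifit2 (0.294), Oas1a (0.334) and Ifit3 (0.362) in the first list and Gbp2 (0.258), Cxcl9 (0.285), Gbp3 (0.326) and Wars (0.328) in the second. Bcl3 (0.285), Ptpn2 (0.382) and Stat5b (0.454) were also lower, and Ebi3 (8.75, on 3 TRAIL- UMIs) and Socs4 (2.23) higher. Of all genes compared there, 8.92% were higher. Of the 10 lower interferon gamma targets, 1 could pass the filter only through a higher TRAIL- level. Ebi3 and Socs4 could pass it only through a higher TRAIL+ level, so these counts are descriptions. The 13 class I genes were all between the limits there.

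The genes most like each member across 15 class-by-library sums were found by Pearson's r of log2(CPM + 10) over 7773 genes. The sums share 4 libraries and a few cell classes, so r describes these sums only. Irf7 was most like the guanylate-binding protein gene Gbp4 (r = 0.964), AW112010 (0.937) and Fxyd5 (0.933). Stat2 was most like the class I genes Tap1 (0.920) and Psmb8 (0.883) and the nuclear body gene Pml (0.898). Nlrc5 was most like Gdap10 (0.952), the itaconate enzyme gene Acod1 (0.946) and Ifi209 (0.931). Irf8 was most like Il21r (0.977), the endosomal receptor gene Tlr13 (0.976) and Themis2 (0.973).

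Socs3 was most like the immediate early gene Zfp36 (r = 0.976), the NF-kB inhibitor gene Nfkbia (0.973) and Ppp1r15a (0.970), and Stat3 like the survival gene Mcl1 (0.965), Ppp1r18 (0.955) and Ubn1 (0.945). Irf1 was most like Vps37b (0.904), Bach1 (0.895) and Dgkz (0.894). Irf9 was most like Olfr1437 (0.901), Ier3 (0.894) and Clec2d (0.891), and Socs1 like Gm3550 (0.879), Crem (0.878) and Fem1c (0.872), the lowest r of the 9 genes.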

How the data were processed

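RNA was measured in 4 libraries made by inDrops version 3, a droplet method that tags each molecule with a UMI. Cells were freed with papain, passed through a 70 µm filter and enriched on 30% Percoll, per the labels' protocols. The authors deposited raw UMI counts per barcode and gene for each library, not normalized. Mapping used Bowtie and the GRCm38 build, per the submitters' processing notes, and the annotation is not stated there. No barcode under 100 UMIs was listed.

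From these counts, barcodes with at least 500 UMIs and at most 20% mitochondrial UMIs were kept. They were clustered with scanpy 1.11.5 (2000 variable genes, 30 components, 15 neighbours, Leiden resolution 1, 17 clusters), leaving the 9 genes and all pathway lists out. Clusters were named X-like from fixed marker lists. The fold used for naming, in which each cluster weighs the same, and the need for a gene to be found in 20% of a cluster's cells were chosen after a size-weighted fold had left the immune-led cluster unnamed. Scrublet called 77 barcodes (0.975%) doublets, and they were kept. TdTomato is not among the gene columns used here, so the reporter was not checked.

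Counts were summed per class and library, for classes with at least 50 cells and 50000 UMIs. A cell with fewer UMIs than another weighs less in such a sum. Genes were compared where the mean of both libraries was at least 10 CPM with 20 UMIs together, and called at 2-fold. A count of 0 was set to the floor of 3 counts for the call. With 1 library per group no test was possible; exact intervals (scipy 1.17.1) cover counting error only. Similar genes were sought among those averaging at least 20 CPM. All 9 genes were named in every comparison, and from each pathway list up to 4 genes with the largest ratios past 2-fold. A gene of the list of other IRF and STAT factors is not reported here. The ratio and 2-fold rule recovered known changes, set larger than 2-fold, in sums simulated from the naive TRAIL+ microglia-like profile. Those sums had no spread between cells, and barcode filtering, clustering and naming were not part of that check. Whether the same holds for changes near 2-fold and the smaller sums compared here was not tested.

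Alternatives were other UMI, mitochondrial and gene limits, doublets removed, TMM scaling (edgeR 4.0.16), size factors (DESeq2 1.42.0), other resolutions, clustering with all genes, the mean CPM over cells, thinning to 500 UMIs, the top cell left out, cells under 1% own markers left out, no low-count filter and a fold of 1.5. The genes and lists were chosen with earlier results of these data known.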

Additional observations from a re-analysis of the deposited data

Results flagged for a closer look

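Socs1 in microglia-like cells lay on opposite sides in the gates. Its EAE-to-naive ratio was 2.05 in TRAIL+ cells (149 UMIs in EAE and 69 in naive) and 0.481 in TRAIL- cells (8 UMIs in EAE and 14 in naive). The difference between the gates was not tested, since each group is 1 library, and the interval of the TRAIL- ratio (0.175 to 1.23) includes 1.

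Barcodes under 500 UMIs entered no comparison, and Irf1 and Irf7 were higher in those of EAE mice in both gates. In the TRAIL+ libraries, with 978 such barcodes in EAE and 1422 in naive mice, Irf1 stood at 514.9 CPM in EAE and 226.4 CPM in naive barcodes, a ratio of 2.27 (1.67 to 3.11). Irf7 had 9 UMIs in EAE and 2 in naive barcodes (ratio 6.55, 1.35 to 62.3), and Stat2 25 and 14 (ratio 2.60, 1.30 to 5.41). Stat3 had a ratio of 0.602 (0.421 to 0.849) there. In the TRAIL- libraries, with 1180 such barcodes in EAE and 1421 in naive mice, Irf1 stood at 163.8 CPM in EAE and 80.8 CPM in naive barcodes (ratio 2.03, 1.23 to 3.398), and Irf7 had 21 UMIs in EAE and 6 in naive barcodes (ratio 4.26, 1.66 to 12.9). Stat3 had a ratio of 1.698 (1.15 to 2.51) and Socs3 one of 1.60 (1.17 to 2.17) in this gate, and Stat2 one of 1.67 with an interval, 0.839 to 3.41, that includes 1. The other ratios in these barcodes had intervals that include 1. These barcodes were not split by cell class. Their microglia marker sum in the TRAIL+ libraries was 26319 CPM for EAE, against 30076 CPM for naive mice, and in the TRAIL- libraries 5934 against 4206 CPM.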

How the results depend on the processing

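No paired analysis was possible because each group has 1 library, and for the same reason no replicate could be left out. No ratio of a gene past 2-fold changed direction under any setting run. Of the counts of genes past 2-fold, that of naive TRAIL+ over naive TRAIL- endothelial-like cells, 1 as reported, was 2 with doublet calls removed, with the mean CPM of cells, without the cell with most UMIs and without cells under 1% own markers, 3 without the low-count filter and at a fold of 1.5, and 4 when thinned. That of EAE over naive TRAIL- microglia-like cells, 6 as reported, was 3 at resolution 2, where the immune-led cluster was unnamed, 2 when thinned, and 3 without the immune-led cluster, an alternative added after seeing the data in which Irf7, Nlrc5 and Socs1 fell below 20 UMIs. That of EAE TRAIL+ over EAE TRAIL- microglia-like cells, 1 as reported, was 2 with the mean CPM of cells and when thinned. That of monocyte-like cells, 2 as reported, was 7 at a fold of 1.5. For thinning and resolution 2 the cause was not tested. Among the 62 gene ratios, thinning moved 15 and a limit of 1000 UMIs moved 4 beyond their counting interval, 5 other settings moved 1 or 2, and leaving out the immune-led cluster moved 4 of 34. Irf9 and Irf1 in pericyte or smooth muscle-like cells reached log2 ratios of 4.43 and 4.46 at that limit, and Irf9 was under 2-fold in 2 of 14 settings. Depth limits Nlrc5 outside myeloid cells, Irf7 in naive microglia-like cells, and Socs1 in TRAIL- microglia-like cells, each with 14 UMIs or fewer.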

Other observations

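Oligodendrocyte-like cells were too few in EAE to be compared in the report, with 35 TRAIL- cells, against 79 in the naive TRAIL- library. Irf7 had 10 UMIs (128.7 CPM) in the EAE cells and 0 in the naive ones, a fold of 5.69 over a floor of 3 counts in the naive library, with a lower interval bound of 3.83. Irf1 had 6 UMIs in EAE and 0 in naive cells, a fold of 3.41 over the floor with a lower bound of 2.01. Stat2 had 8 UMIs in EAE and 3 in naive cells (ratio 4.55, lower bound 1.09), and Stat3 13 and 8 (ratio 2.77, lower bound 1.07). The intervals of Irf9 (ratio 3.41), Irf8 (1.14) and Socs3 (1.14) included 1, Socs1 had 1 UMI in EAE and 0 in naive cells, and Nlrc5 had 0 in both. The microglia marker sum was 322 CPM in the EAE cells, against 211 CPM in the naive ones, and the monocyte marker sum 77.2 against 22.6 CPM. Their part in these values was not tested.

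Choroid plexus epithelium-like cells numbered 41 in EAE TRAIL- and 89 in naive TRAIL-. Irf9 had 10 UMIs in EAE and 5 in naive cells (ratio 4.24, lower bound 1.32), and Irf7 had 4 and 2. Stat2, with 2 UMIs in EAE and 7 in naive cells (ratio 0.606), and Socs3, with 2 and 8 (ratio 0.531), lay on the other side of 1. Irf8 had a ratio of 2.43 and Stat3 one of 1.06. The intervals of Irf7, Stat2, Socs3, Irf8 and Stat3 included 1. Irf1 had 1 UMI in EAE and 0 in naive cells, and Nlrc5 and Socs1 had 0 and 1. The monocyte marker sum was 334 CPM in the EAE cells, against 14.6 CPM in the naive ones, and its part in these values was not tested.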
